A study of Mus musculus with 15 samples.

Results

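The near-empty libraries are 8 of 15 genome architecture mapping (GAM) libraries in which fewer than 1000 of 68162 genomic windows of 40 kb were marked as present. In GAM a frozen cell pellet is cut into thin sections, single nuclear profiles are cut out, and the DNA in each slice is amplified and sequenced, so that a positive window is one whose DNA was detected in that slice. Stretches of a chromosome that pass through the slice are expected as blocks of adjacent positive windows, and loci that lie close together in the nucleus are found together in the same slice more often. All 15 libraries hold 1 nuclear profile each from 46C-ES cells of strain 129/Ola, an embryonic stem cell line derived from a male line with a single X chromosome, grown in serum with LIF on gelatin and moved to a serum-free clonal-grade medium after the last passage, and all were set aside by the authors as failing their quality checks. No treatment or genotype separates the libraries, and 46C is 1 line. The paper describes it as a Sox1-GFP knock-in, a genotype that all 15 libraries share. The labels do not say whether the slices came from separate cultures, so p-values over libraries measure only the spread between these slices.

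Members were chosen on the column sum alone. From lowest to highest, the sum was 14 in f13d5, 17 in f14e1, 202 in f14g3, 224 in f14e5, 242 in f13e3, 259 in f14b5, 325 in f14g6 and 696 in f13g2. The library just above the limit was f13e5 with 1159, and the other 6 larger libraries held between 1458 and 2848. The limit therefore fell in the gap between 696 and 1159. Of the near-empty libraries 3 carried the prefix f13 and 5 the prefix f14, against 4 and 3 of the larger libraries. The table records presence or absence and no read numbers, so the depth of a call cannot be given. The place of the calls did not enter the choice of members, and where they lay is described here.

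A pair of windows was positive in every near-empty library. The first was the mitochondrial chromosome, chrM:1-16299, which is a single window in the table and holds 37 annotated genes, 13 of them protein-coding, among them mt-Nd1, mt-Nd2 and mt-Co1, subunits of respiratory complexes I and IV. It was positive in 8 of 8 near-empty and in 7 of 7 larger libraries, so it did not separate them. The second was chr2:98480001-98520000 (mm9), which holds exons of the protein-coding gene models Gm10801 (+ strand) and Gm10800 (− strand) and has a GC content of 36.9%. It was also positive in all 15 libraries. In f13d5 and f14e1 this pair made up 2 of 14 and 2 of 17 calls.

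The chromosome 2 window holds tandem copies of mouse centromeric satellite sequence, and the units are shown because no other nuclear window was called in every library. Major satellite forms the pericentromeric heterochromatin of mouse chromosomes and minor satellite lies at the centromere itself. Both units below were read from the + strand of NCBIM37, the sequence of mm9, at chr2:98506706-98506939 and chr2:98502668-98502787, with capitals for bases identical in the copy that follows.
Unit of 234 bases (major satellite type): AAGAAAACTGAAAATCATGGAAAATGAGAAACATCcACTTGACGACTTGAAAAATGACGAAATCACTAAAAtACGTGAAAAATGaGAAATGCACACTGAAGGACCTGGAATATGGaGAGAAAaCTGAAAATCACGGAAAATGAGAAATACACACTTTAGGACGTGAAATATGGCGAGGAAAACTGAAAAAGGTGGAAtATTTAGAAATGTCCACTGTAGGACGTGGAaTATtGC
Unit of 120 bases (minor satellite type): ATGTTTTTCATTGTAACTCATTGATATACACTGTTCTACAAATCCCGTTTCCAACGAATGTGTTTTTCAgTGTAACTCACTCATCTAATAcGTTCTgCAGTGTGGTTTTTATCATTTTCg
Each unit was picked as the one most like its next copy. Of the 234 bases, 226 (96.6%) were identical in that copy, and of the 120 bases, 116 (96.7%). Over longer segments identity without gaps was lower, at most 40.8%, reached at 234 bases (chr2:98505501-98507500). Among segments where 120 bases was the best distance, it was at most 37.2% (chr2:98505001-98507000). Short words repeated at these distances lay within chr2:98502395-98507489 and chr2:98502668-98506532, a small part of the window that they need not fill. Of the 24-base words of the window, 18.0% occurred at least 10 times in the assembled sequence. The median over 159 evenly spaced windows was 11.6%, with a 5th to 95th percentile of 3.03% to 36.2%. The window lay inside that range, but copies outside the assembly were not counted. The count therefore does not give how often satellite sequence occurs in the cell.

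Some other windows that share sequence with this pair were called too. The window chr9:3000001-3040000 shared 9534 of its 24-base words with the chromosome 2 window, against an autosomal median of 356 and a 99th percentile of 1872, and was positive in f13g2 and in the larger library f13e1. The next in order, chrX:8040001-8080000 with 4647, was positive in no library. For the mitochondrial sequence, chr1:24600001-24640000 shared 4587 of the 16276 words of chrM, and it was positive in f14b5 alone. Nuclear copies of mitochondrial DNA are a known feature of mammalian genomes. The window chr13:85240001-85280000, with 328 shared words, was called in f14g6 alone. Of the others, chr2:22440001-22480000 with 1867 shared words and chr4:79640001-79680000 with 528 were called in the larger library f13a6 alone, and the 3 next in order in no library. Over the 7 nuclear windows highest in shared words with each sequence, 13 of them autosomal, 3 were called in a near-empty library, where 3.17% of autosomal windows were called in at least 1. These windows were picked after values were seen, and the difference was not tested. The remaining 14 sequences of the table, chrY and the unplaced sequences with 2178 windows in all, held 0 calls in the near-empty libraries. The mitochondrial and chromosome 2 windows are left out of the counts that follow.

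Most remaining calls lay on the autosomes, and libraries with similar numbers of calls left partly different autosomes empty. Autosomal calls numbered 12 in f13d5, 236 in f13e3, 690 in f13g2, 248 in f14b5, 15 in f14e1, 220 in f14e5, 199 in f14g3 and 323 in f14g6, 1943 in total, and 20 further calls lay on chromosome X. In f13g2 and f14b5 every autosome held a call. The other 4 libraries with about 200 calls or more left whole autosomes empty. In f14e5 no call lay on chromosomes 1, 7, 10, 14, 17, 18 and 19, and in f13e3 none lay on chromosomes 3, 10, 14, 15, 16 and 18. Chromosomes 10, 14 and 18 were thus empty in both. In f14g6 chromosomes 1, 4, 8, 15 and 19 were empty, and in f14g3 chromosomes 7, 8, 10 and 13. If stretches of calls fell on autosomes in proportion to their windows, under 0.0113 empty autosomes would be expected in each of these 4 libraries. The 2 smallest libraries each left 13 autosomes empty, against 10.1 for f13d5 and 9.07 for f14e1 by that formula. Of the larger libraries, 5 also had empty autosomes, from 1 to 4 each.

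**Figure D1:**
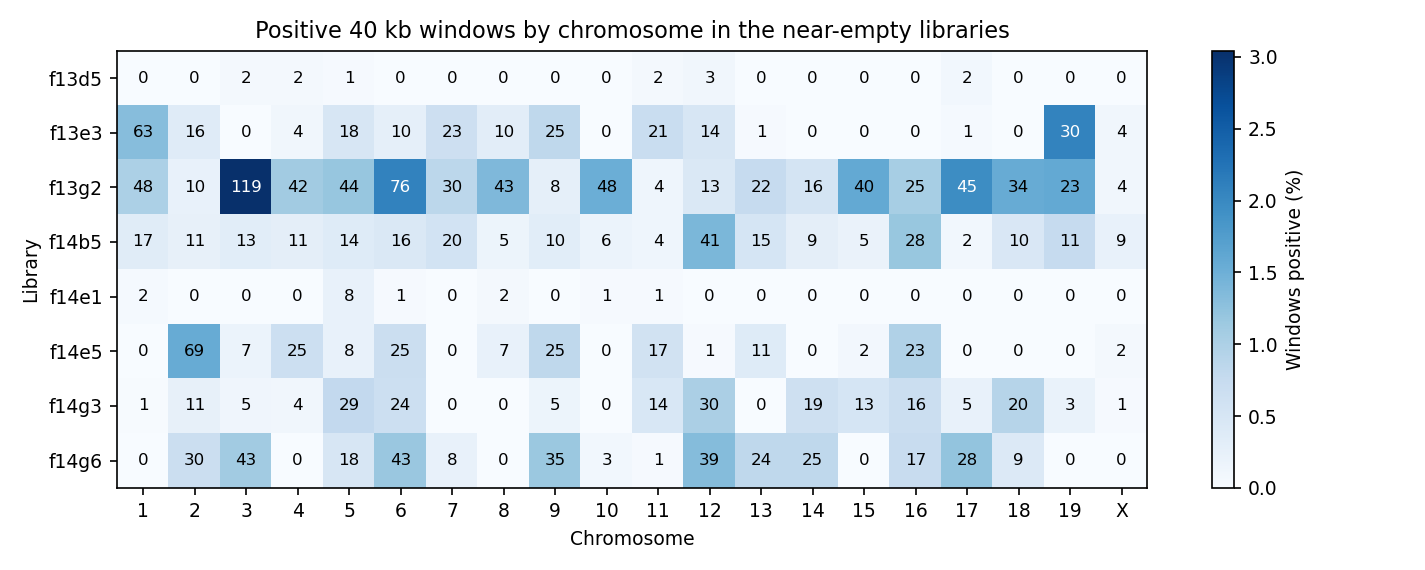
Number of positive 40 kb windows (printed in each cell) of each near-empty library (rows) on chromosomes 1 to 19 and X (columns), with the colour giving the percentage of that chromosome's windows that were positive. The chromosome 2 window positive in all 15 libraries is left out. Rows f13g2 and f14b5 have a call on every autosome, and f14e5 has 7 empty autosomes and 69 calls on chromosome 2.

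The calls of each library also leaned to certain autosomes. In f13e3 chromosome 1 held 63 calls (26.7% of its autosomal calls), but chromosome 19 was the most densely covered, with 30 calls against 5.46 in proportion to its windows. In f14e5 chromosome 2 held 69 calls (31.4%) against 15.5 in proportion. Chromosome 12 was the densest in f14b5, with 41 calls against 11.8, in f14g3, with 30 against 9.19, and in f14g6, with 39 against 14.8. It was also the densest in f13d5, on only 3 calls against 0.552. In f13g2 the densest was chromosome 3, with 119 calls (17.2%) against 42.5. In f14e1 chromosome 5 held 8 of 15 calls (53.3%). The densest autosome thus exceeded its share between 2.63 times (f14g6) and 9.23 times (f14e1), the latter on 8 calls. The 5 fullest autosomes held between 48.7% (f13g2) and 93.3% (f14e1) of a library's autosomal calls, and between 44.2% and 98.8% in the larger libraries.

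On the autosome with the most calls, libraries differed in how widely the calls were spread. The 69 calls of f14e5 on chromosome 2 spanned 164.6 of 181.7 Mb and the 41 of f14b5 on chromosome 12 spanned 110.0 of 121.3 Mb, and the middle 50% of them covered 67.4 Mb and 41.3 Mb. The 119 calls of f13g2 on chromosome 3 spanned 152 Mb of its 159.6 Mb, but all except 2 lay within 92.4 Mb of the first, and the middle 50% covered 42.7 Mb. The narrowest middle 50% among the libraries with about 200 calls or more was that of f14g6 on chromosome 3, 19.04 of 159.6 Mb. The median gap between consecutive calls was 0.96 Mb in f14e5, 1.48 Mb in f14b5, 0.26 Mb in f13g2 and 0.3 Mb in f14g6. On chromosome 1 of f13e3 the 63 calls spanned 129.5 Mb of 197.2 Mb, and no call lay beyond position 134320000.

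**Figure D2:**
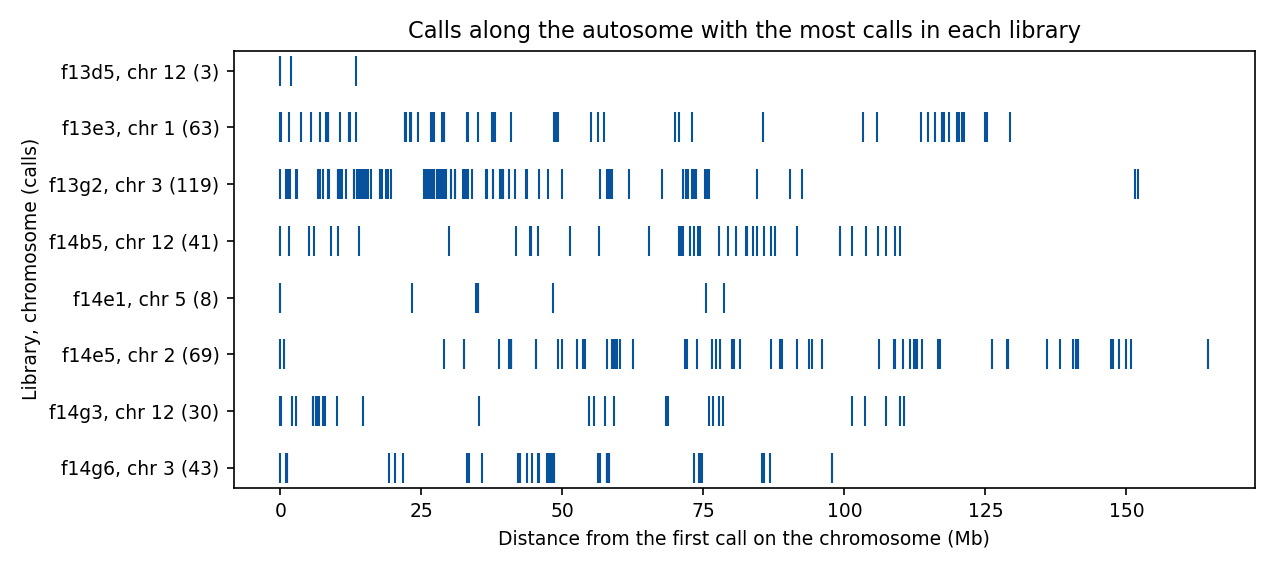
Each tick is a positive 40 kb window on the autosome with the most calls in that near-empty library, placed by its distance in Mb from the first call on the chromosome, with the number of calls in parentheses. Calls span most of the chromosome in f14b5, f14e5 and f14g3, all except 2 of the calls of f13g2 lie within 92.4 Mb of the first, and the calls of f14g6 are densest near 48 Mb. In f14g6 chromosomes 3 and 6 tie with 43 calls and chromosome 3 is drawn.

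Chromosome X was the only chromosome below its share in every near-empty library, in a design too small for any single chromosome to pass after adjustment. For each of 19 autosomes and X, calls were set against the calls in proportion to windows as a log2 ratio after adding 0.5 to both, and the 8 ratios were tested with an exact two-sided sign-flip permutation test. Of 20 chromosomes, 0 passed an adjusted p of 0.05 (Benjamini-Hochberg) and 2 had an unadjusted p below 0.05. With 8 libraries a single chromosome could not pass, since the smallest p, 0.0078, becomes 0.156 when adjusted over 20. Chromosome X was below its share in 8 of 8 libraries (mean log2 ratio −2.49 ± 1.46, SD, n = 8, exact permutation p = 0.0078, the smallest that 8 libraries allow, adjusted p = 0.156). It held 0 calls in f13d5, f14e1 and f14g6, 1 in f14g3, 2 in f14e5, 4 in f13e3, 4 in f13g2 and 9 in f14b5. In proportion to its windows it would have held 0.761, 0.952, 20.5, 12.7, 14.1, 15.2, 44.0 and 16.3. These shares, and the ratio of 0 that the test takes as no difference, count windows and make no allowance for the single copy of X beside paired autosomes in a male line. Library f14b5 came closest to its share among those with about 200 calls or more. Most larger libraries were also below their share of X: f13a6 (104 calls, 123 in proportion), f13e1 (162, 181), f13e5 (16, 73.4), f13g3 (135, 174) and f14g4 (1, 92.9). Above their share were f14c2 (137, 125) and f14f2 (283, 92.3). Chromosome 10 was the other with an unadjusted p below 0.05 (exact permutation p = 0.031, adjusted p = 0.312). Its mean log2 ratio was −2.15 ± 2.13 (SD, n = 8), below in 6 of 8 libraries, empty in 4 and above its share in f13g2 with 48 calls. A ratio of 0 is also not neutral for patchy calls, since libraries with an empty chromosome pull the mean log2 ratio down. Most of the 20 chromosomes had a mean below 0, such as chromosome 1 at −1.68 with 131 calls and 7.49% of windows. The p-values do not separate this pull from a deficit of calls.

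Single windows made up most of the calls. Over the autosomes and X, the 1963 calls formed 1815 stretches, of which 1678 were single windows, 127 pairs, 9 triples and 1 a stretch of 4. The share of calls with no positive neighbour was 100% in f13d5, 94.9% in f14b5, 93.0% in f14g3, 89.6% in f14e5, 86.7% in f14e1, 83.0% in f14g6, 81.7% in f13e3 and 80.7% in f13g2. Calls placed independently on each chromosome would give between 96.8% and 99.9%, so 7 of the 8 fell below their own value and f13d5, with 12 calls, did not. The larger libraries had 31.1% to 62.1% single calls and longest stretches of 5 to 14 windows, and neither range overlapped that of the near-empty libraries. Both measures move with the number of calls that chose the members, and independent placement would give 83.3% to 92.1% single calls in the larger libraries.

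The longest stretch of any near-empty library lay in f13g2 on chromosome 12, chr12:35080001-35240000, which is 4 windows (160 kb) inside Hdac9 (− strand, with exons in the stretch), a histone deacetylase gene. In f14b5 it was chr16:19160001-19280000, 3 windows over the immunoglobulin lambda light chain locus with exons of Iglc2, Iglv3 and Iglv2. In f14g6 it was chr2:19880001-20000000, 3 windows that hold introns of Etl4 and the pseudogenes Gm13361 and Gm13363. In f14e5 it was chr2:133920001-134040000, 3 windows with no annotated gene, at least one of them also positive in f14f2. In f14e1 it was the pair chr5:108040001-108120000 with exons of Rpap2, whose product is an RNA polymerase II phosphatase. In f13e3 the longest were 22 pairs, among them chr1:13320001-13400000 in Ncoa2, a nuclear receptor coactivator gene, and in f14g3 7 pairs, among them chr2:157040001-157120000 with exons of Rpn2, a subunit of the oligosaccharyltransferase complex.

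Beyond direct neighbours, calls lay near one another without touching. The share of autosomal calls with another call within 1 Mb counts adjacent calls too. It was 88.1% in f13g2, 86.4% in f14g6, 72.3% in f14e5, 70.8% in f13e3, 60.8% in f14g3, 36.7% in f14b5, 20% in f14e1 and 0% in f13d5. Independent placement within each chromosome would give 52.0%, 36.7%, 34.3%, 34.5%, 26.1%, 24.96%, 5.21% and 1.92%. The share exceeded that value in 7 of 8 libraries, by the least factor in f14b5. The median distance to the nearest call on the same autosome was 0.2 Mb in f13g2 and f14g6, 0.32 Mb in f13e3, 0.44 Mb in f14e5, 0.68 Mb in f14g3, 2.16 Mb in f14b5, 5.56 Mb in f13d5 and 7.28 Mb in f14e1. Libraries f14b5 and f13e3 had nearly the same number of calls and differed in this respect. Among calls with no adjacent call, 125 of 194 (64.4%) in f13e3 had another within 1 Mb and 80 of 237 (33.8%) in f14b5. Over the near-empty libraries this share of calls with no adjacent call ran from 0% (f13d5) to 85.3% (f13g2).

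**Figure D3:**
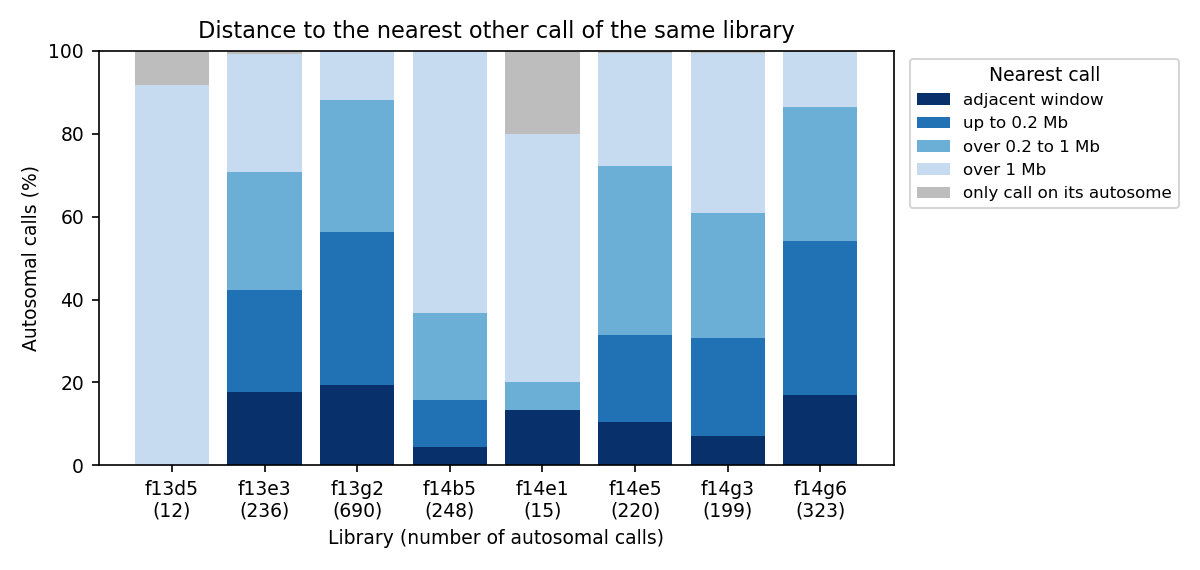
Percentage of the autosomal calls of each near-empty library (number in parentheses) by the distance to the nearest other call of that library on the same autosome. Dark bars are adjacent windows. In f13g2 and f14g6 88.1% and 86.4% of calls have another within 1 Mb, and in f14b5 36.7%.

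Where calls were linked over distances up to 1 Mb, they formed patches of sparse calls. Of the 690 calls of f13g2, 377 (54.6%) lay in 48 patches of 5 calls or more, and of the 323 of f14g6, 126 (39.0%) lay in 16. Library f13e3 had 10 such patches, f14e5 6 and f14g3 3. Library f14b5 had none, its largest patch being 4 calls. The larger libraries had 48 to 150. Patches were described after their values were seen.

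The largest was chr10:22800001-28400000 in f13g2, where 25 of the windows in 5.6 Mb (17.9%) were called. Its called windows touch 15 of the 37 protein-coding genes of the region, among them Eya4, the trace amine receptor genes Taar1, Taar2 and Taar3, Enpp1, which makes pyrophosphate, Arg1, an arginase of the urea cycle, and Lama2, a laminin chain. In f14g6 patches of 13 calls lay at chr2:19400001-22840000, with Arhgap21, Gpr158 and Abi1, and at chr12:11080001-14080000, with Smc6 of the SMC5/6 DNA repair complex, Ddx1 and Nbas. In f14e5 the largest patch was 11 calls at chr4:37320001-41400000, with the DNA repair gene Aptx, the chaperone gene Dnaja1 and Kif24. In f14g3 it was 7 calls at chr12:9040001-11200000, with Ttc32, followed by 6 calls in 0.8 Mb of chromosome 18 that touched the desmosomal cadherin genes Dsg1a, Dsg1c, Dsg3 and Dsg4 and the transthyretin gene Ttr. In f13e3 a pair of patches of 6 calls lay on chromosome 19, at chr19:18200001-19960000 with Trpm6, a magnesium channel, and at chr19:55480001-56360000 with Vti1a, a vesicle SNARE.

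The number of windows shared with the larger libraries was near that of rotated tracks. Of 59862 autosomal windows with at least 50% known bases, 11632 were positive in at least 1 of the 7 larger libraries, a background of 19.4%. Of the 1943 autosomal calls of the near-empty libraries, 374 (19.2%) lay in such a window. With the larger libraries rotated together around each chromosome, over every offset, the mean was 371.9 and the central 95% of rotations ran from 332 to 413, so the count sat near the middle. Rotation keeps the spacing of the calls and breaks their place along the chromosome. By library the numbers were 1 of 12 in f13d5 (rotated mean 2.49), 65 of 236 in f13e3 (51.7), 113 of 690 in f13g2 (123.6), 43 of 248 in f14b5 (44.9), 5 of 15 in f14e1 (3.39), 58 of 220 in f14e5 (48.7), 35 of 199 in f14g3 (36.9) and 54 of 323 in f14g6 (60.2). All 8 lay inside their own range of rotations, with f13e3 nearest to an edge, at 65 in a range of 38 to 66. Between 66.7% (f14e1) and 91.7% (f13d5) of a library's autosomal calls were found in no other library.

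Pair by pair, 53 of the 56 pairs of a near-empty and a larger library lay inside their range. The pair f13e3 and f13a6 shared 22 windows against a rotated mean of 7.33 (range 2 to 14), in 21 separate stretches over 6 chromosomes, and 12 of the 22 were positive in no other library. The pair f14e5 and f13a6 shared 14 against 6.75 (range 2 to 13), on 7 chromosomes. The pair f14g6 and f14g4 shared 1 against 8.06 (range 2 to 16). The range leaves out 2.5% of rotations on each side, and 56 pairs were looked at. Both pairs above their range involve f13a6, the larger library with 1942 positive windows.

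Among the near-empty libraries themselves, shared windows were few but more than rotation gave. Of the 59862 autosomal windows, 1898 (3.17%) were positive in at least 1 of the 8, 1857 of them in 1 library, 37 in 2 and 4 in 3. Summed over the 28 pairs there were 49 shared windows against a rotated mean of 24.2 (range 15 to 35, with pairs combined as if independent), 2.02 times the mean. Of the pairs, 3 lay above their range and all 3 include f14b5. This library shared 8 windows with f14e5 against 0.868 (range 0 to 3), 8 with f14g3 against 1.12 (range 0 to 4) and 7 with f13g2 against 2.66 (range 0 to 6). The windows of each such pair lay on 5 chromosomes. Without f14b5 the remaining pairs shared 23 windows against 16.7 (range 9 to 26), inside the range. Of the 28 pairs 14 shared no window, and f13d5 shared none with any other near-empty library.

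**Figure D4:**
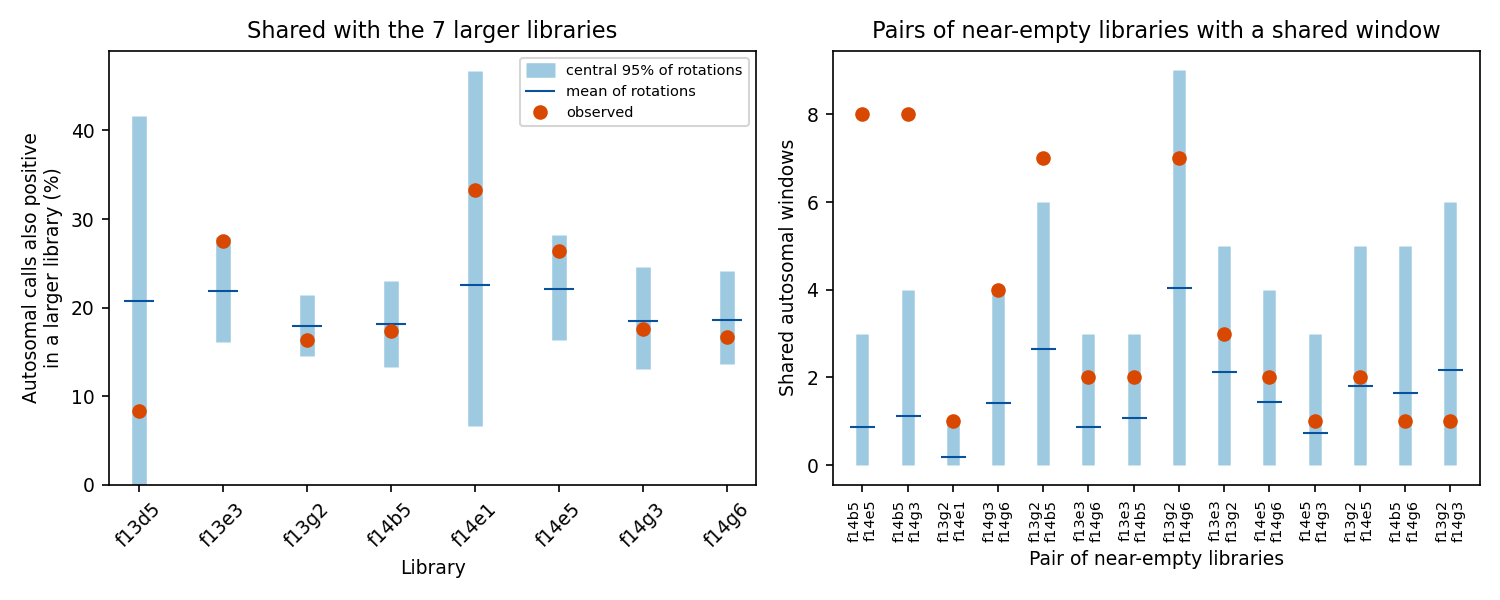
Left, percentage of each near-empty library's autosomal calls that were also positive in at least 1 larger library (points), with the mean (line) and central 95% (bar) of all rotations. Right, number of autosomal windows shared by each pair of near-empty libraries with at least 1 shared window, on the same scheme. All 8 points on the left lie within their bars, and on the right 3 pairs with f14b5 lie above theirs.

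The 4 windows positive in 3 near-empty libraries all included f14b5. At chr6:103560001-103600000, within Chl1 (+ strand, exon in the window), a neural cell adhesion gene, f13e3, f13g2 and f14b5 were positive together with 4 larger libraries. At chr16:94000001-94040000, within Cldn14 (− strand, exon in the window), a tight junction claudin gene, f13g2, f14b5 and f14e5 were positive together with 1 larger library. The others are adjacent. At chr11:3040001-3080000, with exons of Sfi1 (− strand), a centrosome gene, and of the models Gm11399 and Gm11400, f13g2, f14b5 and f14g3 were positive together with 4 larger libraries. At chr11:3080001-3120000, with exons of Sfi1, of the GTPase gene Drg1 (− strand) and of Eif4enif1 (+ strand), whose product carries the translation factor eIF4E, f14b5, f14g3 and f14g6 were positive together with 2 larger libraries. In these 4 windows 5.43% (Chl1), 6.44% (Cldn14), 10.1% and 12.2% (Sfi1) of 24-base words occurred at least 10 times in the assembled sequence. These values were near or below the median of 11.6% of evenly spaced windows, and copies outside the assembly were not counted. Near the Cldn14 window, chr16:93840001-93880000 was shared by f14b5 and f14e5, chr16:93960001-94000000 by f13g2 and f14g6, and chr16:94840001-94880000 by f13g2 and f14b5.

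The 2 smallest libraries can be given window by window. The share of all autosomal windows with a protein-coding gene is not given here, so the counts below show no preference for genes. Of the 12 autosomal calls of f13d5, 9 lay in windows with a protein-coding gene and 3, at chr3:142960001-143000000, chr11:111920001-111960000 and chr17:92920001-92960000, in windows with no annotated gene. The genes were Gm5105 (chr3:137680001-137720000), Palm2 and AF064781 (chr4:57680001-57720000), Oma1, a protease of the mitochondrial inner membrane (chr4:103000001-103040000), Orai1, the pore of the store-operated calcium channel, with Morn3 and Tmem120b (chr5:123480001-123520000), Tnrc6c, of the miRNA silencing complex (chr11:117480001-117520000), Sipa1l1 (chr12:83520001-83560000), Dnalc1, Pnma1 and C130039O16Rik (chr12:85480001-85520000), Flrt2, of which the window holds only intron (chr12:96960001-97000000), and Fem1a with Mir7b (chr17:56360001-56400000). No pair of these calls lay within 1 Mb. Only the window at chr11:111920001-111960000 was positive in a larger library, f13g3.

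Of the 15 autosomal calls of f14e1, 9 lay in windows with a protein-coding gene, again without a share over all windows beside the count. On chromosome 5 these were Nipal1, a magnesium transporter gene (chr5:73040001-73080000), Gm5559 (chr5:96280001-96320000), Rpap2 (the adjacent windows given above) and Rph3a, a synaptic vesicle gene (chr5:121400001-121440000). The chromosome 5 windows chr5:107720001-107760000 and chr5:151680001-151720000 held only small nuclear or nucleolar RNA genes, U6 and U3, and chr5:148560001-148600000 no gene. Elsewhere the calls lay at Kif26b, intron only (chr1:180480001-180520000), Crhr2, a receptor of corticotropin-releasing hormone (chr6:55080001-55120000), Ctu2, Fam38a and Gm20388 (chr8:125000001-125040000), Ptprr, a tyrosine phosphatase gene (chr10:115600001-115640000), a U6 gene (chr11:38600001-38640000), and in windows with no gene at chr1:187760001-187800000 and chr8:111040001-111080000. Of these, 5 were positive in a larger library, and chr1:187760001-187800000 was also positive in f13g2.

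In GC content, gene cover and exon cover, called windows differed from their chromosomes by less than the spread between libraries. Each library's called windows were set against all windows of the same chromosomes, weighted alike, and the 8 differences were tested with an exact two-sided sign-flip permutation test, adjusted over 5 properties. GC content was 42.6% in called windows against 42.0% (difference 0.588 ± 0.872 percentage points, SD, n = 8, higher in 5 of 8, exact permutation p = 0.109, adjusted p = 0.215), and the difference was 0.207 in the 6 libraries that held 100 calls or more and 0.371 without f14e1. The share of the window covered by annotated genes was 44.7% against 42.1% (difference 2.57 ± 4.49, n = 8, higher in 6 of 8, exact permutation p = 0.172), and 1.64 without f13d5. By library the difference ran from −5.73 in f14e5 through −0.02 in f14e1, 0.169 in f13g2, 2.68 in f13e3, 3.61 in f14g3, 5.33 in f14g6 and 5.41 in f14b5 to 9.11 in f13d5. In the larger libraries it was 2.58 ± 1.06 (SD, n = 7) and above 0 in 7 of 7, with less spread between libraries. The share covered by exons of coding genes was 3.62% against 3.11% (difference 0.507 ± 1.05, n = 8, higher in 6 of 8, exact permutation p = 0.156), and the difference was 0.165 without f13d5 and 0.104 in those 6 libraries.

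The share of calls at the chromosome ends also varied between libraries by more than the mean difference from the background. Mouse autosomes carry their centromere at the start of the sequence, so the first 5 Mb of assembled sequence is the centromeric end. That end held 11.01% of the calls of f13g2 against 3.999% of windows and 9.32% of those of f13e3 against 4.01%, but 2.48% in f14g6 against 3.94% and none in f13d5 and f14e1 (mean difference 1.16 ± 4.05, n = 8, higher in 4 of 8, exact permutation p = 0.453). It was 0.327 without f13g2, 0.571 without f13e3, 1.903 without f13d5, 1.82 without f14e1 and 2.80 in the 6 libraries that held 100 calls or more (exact permutation p = 0.125). The last 5 Mb held 8.98% of the calls of f14g6 against 3.98%, and 16.7% and 13.3% in f13d5 and f14e1, which is 2 calls each. The mean difference was 3.53 ± 5.14 (n = 8, higher in 6 of 8, exact permutation p = 0.086, adjusted p = 0.215), and it was 0.964 in the 6 libraries that held 100 calls or more (exact permutation p = 0.344) and 2.23 without f13d5. None of the 5 properties passed the adjusted threshold.

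**Figure D5:**
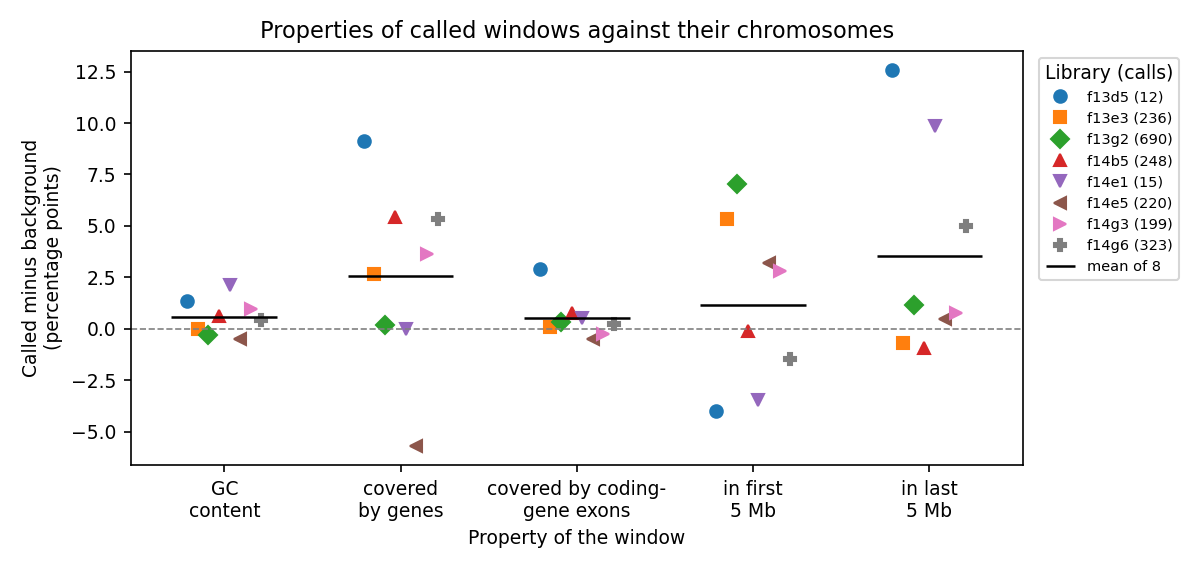
Difference in percentage points between the called autosomal windows of each near-empty library and all windows of the same chromosomes, for GC content, percentage of the window covered by genes and by exons of coding genes, and percentage of calls in the first and last 5 Mb (one marker per library, line for the mean of 8). Libraries f13d5 and f14e1, with 12 and 15 calls, are the highest points for GC content and the last 5 Mb, and all 5 sets of points reach below 0.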

How the data were processed

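The authors amplified the DNA of single nuclear profiles with the WGA4 kit and sequenced Nextera libraries. The submitters' processing notes name Bowtie2 2.1 and mm9. The table deposited by the authors marks 68162 windows of 40 kb as 1 (present) or 0 (absent) in 15 libraries, so the deposited unit is a presence call with no read counts, and depth per call is unknown. The methods state a threshold of 4 reads for multiplex-GAM, and whether it holds here is not given in the sources used here.

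All 15 libraries form 1 group, and members are those with a column sum below 1000. The members and all lists were chosen with earlier results of these data known. The last windows of chromosomes end where NCBIM37 does, and the sequence and GENCODE annotation of that build gave GC content, genes and 24-base words. Autosomal windows with at least 50% known bases were used, without the chromosome 2 window positive in all libraries. Rotations were enumerated over every offset and combined over chromosomes, giving a mean and central 95% range. Values by independent placement come from formulas. Sign-flip permutation tests were exact and two-sided over the 8 libraries, with Benjamini-Hochberg adjustment at 0.05. Windows named are all those of libraries under 20 calls, the longest stretches (up to 3 at a tie), those positive in at least 3 near-empty libraries, and those positive in all 15. Patches, distances to the nearest call, shared 24-base words, satellite units and windows near Cldn14 were chosen after values were seen. Alternatives covered the windows counted, the unit, the prefix, the width of chromosome ends and leaving out libraries, and position in libraries with at least 100 calls was added after seeing the data. Functions were tested on simulated data first. Python 3.11.15, numpy 2.4.6, pandas 2.3.3, numba 0.67.0 and matplotlib 3.10.9 were used.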

Additional observations from a re-analysis of the deposited data

Results flagged for a closer look

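Of 11 measures compared over the 8 near-empty libraries, 2 had a library whose gap to its nearest neighbour was large against the whole range (Dixon's 95% critical value). Chance gives about 1 in 20 such gaps where all values vary alike. Both flagged libraries hold few calls, so that rate need not apply here. The percentage of autosomal calls on the autosome with the most was 53.3% in f14e1, on 15 calls, where the next highest was 31.4% in f14e5. The cover by exons of coding genes, called windows minus their background, was 2.90 percentage points in f13d5, on 12 calls, where the next highest was 0.755 in f14b5.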

How the results depend on the processing

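The windows shared with larger libraries stayed inside the range of rotations under the settings printed here, and their ratio to the rotated mean, 1.006, crossed 1 in both directions. It was 0.971 without windows positive in at least 4 libraries and 0.966 within the same prefix. Between different prefixes it was 1.11 (214 windows against 192.8, range 164 to 223). When single libraries of either kind were left out it was 0.935 to 1.06. The ratio of 2.02 among near-empty libraries was 1.52 between different prefixes (22 windows against 14.5, range 7 to 23, inside it). Within the same prefix it was 2.77 (27 windows against 9.75, range 4 to 16). Without windows positive in at least 4 libraries it was 1.51 (36 windows against 23.8, range 15 to 34). It was 1.37 to 2.52 when single libraries were left out, lowest without f14b5, where it also fell inside the range. The excess in the last 5 Mb was 1.89 percentage points in 3 Mb (exact permutation p = 0.039, unadjusted) and 2.23 to 4.17 when single libraries were left out, with p below 0.05 without f14b5 (0.047). Gene cover ranged from 1.64 to 3.75 percentage points, highest without f14e5 (p = 0.031, unadjusted). The cause was not tested. Other results kept their direction and their side of the threshold under their alternatives, which says nothing for the count of chromosomes passing, 0 throughout, since no single chromosome could pass. In the 6 libraries that held 100 calls or more the excess was 0.964 points in the last 5 Mb (p = 0.344) and 2.80 in the first (p = 0.125). The log2 ratio of chromosome X ranged from −2.72 to −2.07 when single libraries were left out. The number of reads behind a call is unknown, so a slice with little DNA and a library with few reads cannot be told apart. The 12 and 15 autosomal calls of f13d5 and f14e1 allow only wide comparisons. No paired analysis was possible because all 15 libraries form 1 group, so no groups share replicate numbers.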
